A study of Rattus norvegicus with 16 samples.

Results

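The comparison is between livers of male Sprague-Dawley rat pups whose dams were dosed with a mixture of aryl hydrocarbon receptor agonists (AhR, 4 arrays) and livers of pups whose dams received the corn oil vehicle alone (C, 4 arrays), all taken at postnatal day 21. These 8 arrays were chosen by their labels from 16 arrays of the same age. Per the labels, the agonist mixture held non-ortho polychlorinated biphenyls, polychlorinated dibenzodioxins and polychlorinated dibenzofurans at a summed dose of 1.8 ng/kg/day in equivalents of tetrachlorodibenzodioxin. In the other 8 arrays the dams had been given a contaminant mixture (methylmercury together with polychlorinated biphenyls and organochlorine pesticides) at a daily dose of 0.5 mg/kg (0.5M, 4 arrays) or 1.0 mg/kg (M, 4 arrays). All dams were dosed through gestation and lactation and all pups stayed with their birth mothers. Every array held RNA pooled from 2 pups, so a group stands for 8 pups. On each array the pooled liver RNA carried the dye Cy5 and a reference RNA from 14 rat cell lines carried Cy3, and a level below is the log2 ratio of liver to reference. The labels do not tell which pups were littermates, and where arrays of a group shared dams the printed errors and p-values understate the spread.

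The aryl hydrocarbon receptor is a ligand-activated transcription factor. In the unbound state it waits in the cytoplasm with Hsp90 and the co-chaperone p23. Dioxin-like compounds release it to the nucleus, where it pairs with ARNT and binds the core motif GCGTG in the control regions of its targets. Cyp1a1, an enzyme that oxidises polycyclic aromatic compounds, is the classic induced gene in liver. Cyp1a2, Cyp1b1, Nqo1, Ugt1a6 and Gsta2 also belong to the receptor's gene battery, and Ahrr and Tiparp are its feedback repressors.

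The 250 bases before the start are shown for Cyp1a2, Ugt1a6 and Nqo1 as the battery members whose levels are described beside Cyp1a1 below. They come from RefSeq on the GRCr8 build, are written 5′ to 3′ on the gene's strand, and carry each match of GCGTG on either strand (CACGC on the other strand) in capitals. The motif was found in 8666 of 33469 promoter windows of this length (25.9%). In the 14 of 16 listed battery genes with a window it was found in 9. Cyp1a1 and Aldh3a1 had no window, so their promoters were not searched. The Cyp1a2 window (chr8:66978150-66978399, minus strand) held 0 matches, the Ugt1a6 window (chr9:96194768-96195017, plus strand) 1 match that begins at base -133, and the Nqo1 window (chr19:52220268-52220517, minus strand) 1 match that begins at base -10, counted back from the gene's first base. Such a match is a description of the letters, and distant enhancers were not searched.
Cyp1a2: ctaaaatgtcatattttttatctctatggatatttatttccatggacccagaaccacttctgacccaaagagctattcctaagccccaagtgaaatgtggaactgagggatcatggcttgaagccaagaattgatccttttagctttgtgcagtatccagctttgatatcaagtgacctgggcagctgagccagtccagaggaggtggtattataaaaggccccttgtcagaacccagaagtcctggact
Ugt1a6: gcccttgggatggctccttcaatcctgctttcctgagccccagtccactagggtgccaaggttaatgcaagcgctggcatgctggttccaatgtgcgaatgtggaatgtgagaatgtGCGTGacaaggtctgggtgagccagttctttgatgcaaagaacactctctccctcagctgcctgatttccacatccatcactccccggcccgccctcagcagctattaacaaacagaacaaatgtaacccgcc
Nqo1: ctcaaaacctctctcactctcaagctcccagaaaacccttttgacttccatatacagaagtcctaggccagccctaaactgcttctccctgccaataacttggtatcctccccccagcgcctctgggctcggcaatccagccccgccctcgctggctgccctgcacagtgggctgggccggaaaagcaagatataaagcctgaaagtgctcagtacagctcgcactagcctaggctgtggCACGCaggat

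The liver label held by its markers: 13 to 14 of 14 hepatocyte markers were detected well above background on each AhR and C array. Probes well above background in Cy5 numbered 8828 to 13824 on the AhR and C arrays of slide 1, and 13388 to 15686 on those of slide 2. Each slide held 2 arrays of every group, replicates 1 and 2 on slide 1 and replicates 3 and 4 on slide 2, and the slide was a term of the model. Markers of other tissues stood out on single arrays among the 8. In AhR replicate 2, 6 of 7 measured exocrine pancreas markers were the highest of the 8 arrays, and the list lay a median of 0.74 above its median on the other 7. Summed Cy5 signal over the 20 pancreas markers on the array was 1462 to 2503 in AhR and 1488 to 1597 in C, and 13 of the 22 listed markers, Prss1 and Pnlip among them, did not pass the filter. In AhR replicate 1, 11 of 12 measured skeletal muscle markers and 9 of 14 hepatocyte markers were the highest, with medians 0.99 and 0.42 above the other arrays. The muscle list also lay above its median elsewhere on the other slide 1 arrays, by 0.69 in C 1, 0.40 in C 2 and 0.30 in AhR 2. On the slide 2 arrays it lay below, at -0.45 to -0.24. AhR 1 and C 1 had the fewest probes well above background of the 8 arrays, 8828 and 10056. Over the 22 muscle markers on the array summed Cy5 signal was 1859 to 3385 in AhR and 1823 to 2897 in C. Myh2, Myh4 and Myh7 did not pass the filter. In AhR replicate 3, 5 of 6 erythroid, 4 of 5 endothelial and 5 of 12 Kupffer cell and leukocyte markers were highest, and in C replicate 2, 4 of 6 fat markers. The sum over 7 erythroid markers was 39654 to 62700 in AhR and 35308 to 52402 in C. The part of these cells in the differences between AhR and C was not tested beyond leaving arrays out.

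**Figure D1:**
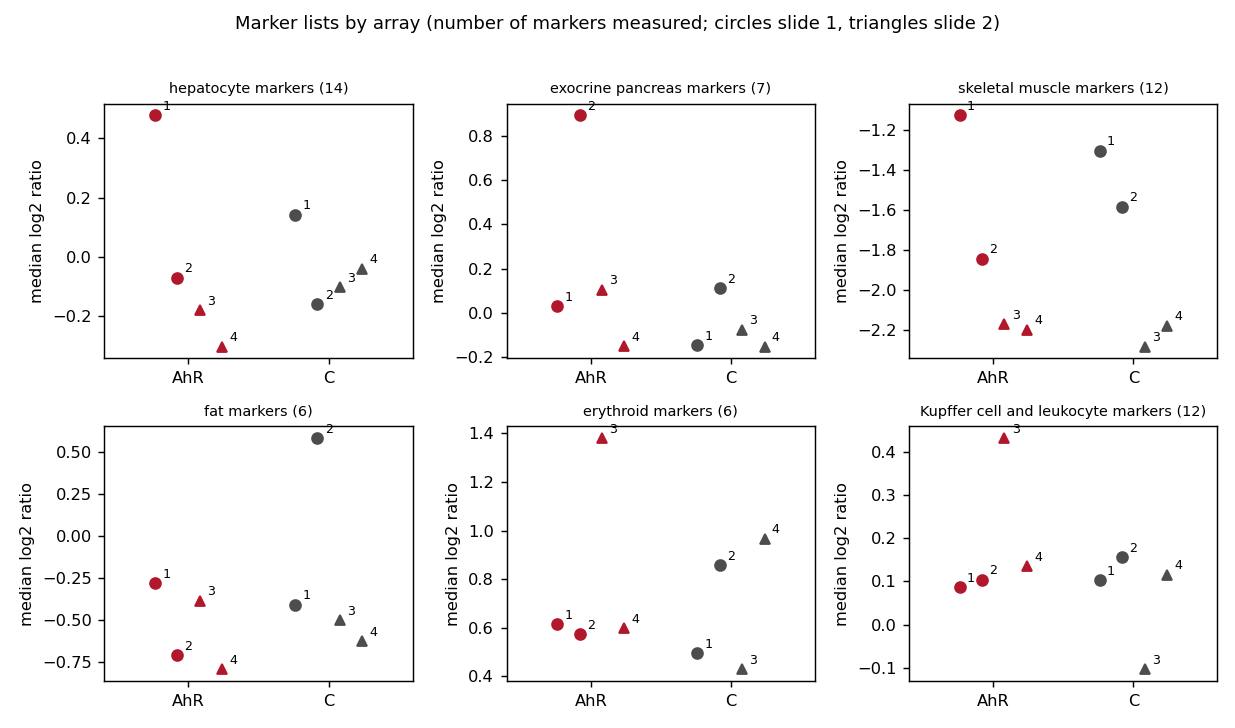
Median log2 ratio of liver to reference over the measured markers of 6 cell types (vertical axis) on each AhR and C array (points, numbered by replicate). The pancreas median of AhR replicate 2 was 0.89 and lay above the other AhR and C arrays, and the fat median of C replicate 2 was 0.59.

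Cyp1a1 was the single transcript that differed between AhR and C livers in the test over all transcripts. Its level was 0.60, 1.12, 0.61 and 0.92 in AhR replicates 1 to 4, against -1.08, -1.76, -1.74 and -2.01 in C replicates 1 to 4. All 4 AhR arrays were high and all 4 C arrays low, with a gap of 1.68 between the lowest AhR and the highest C array. The mean was 0.81 ± 0.25 in AhR and -1.65 ± 0.39 in C (SD, n = 4 arrays each). The difference of 2.46 ± 0.18 (SE; 95% interval 2.07 to 2.85) is a 5.50-fold rise, with an adjusted p of 7.26e-06 in limma after Benjamini-Hochberg adjustment over 13146 transcripts. An exact two-sided permutation test over the 70 splits of the 8 arrays gave p = 0.0286, the smallest that these splits allow. With the labels exchanged within slides only, an alternative added after seeing the data, the exact p was 0.0556, the smallest that the 36 such arrangements allow. The rise was 2.28 on slide 1 and 2.64 on slide 2, from different pups, and 2.37 to 2.62 with any single AhR or C array left out. It lay between 2.26 and 3.17 over 27 other settings of the processing, 24 of which kept it past the threshold. It missed the threshold with median centring in place of loess (adjusted p = 1.00), with quantile normalization between arrays (adjusted p = 0.0717) and on slide 1 alone (adjusted p = 0.444), all in limma. In bulk liver, fewer cells of a type and less RNA per cell cannot be told apart.

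The single call is 0.00761% of the 13146 transcripts, and 0% were called lower in AhR. At an unadjusted p under 0.05, limma listed 495 transcripts, and the second smallest adjusted p was 1.00. The median difference over all transcripts was 0.000218, 50.1% lay above 0, and the median standard error was 0.104. For 129 transcripts (0.981%) all 4 AhR arrays lay above all 4 C arrays, and for 134 (1.02%) all lay below. Only 5 transcripts differed by over 1 on the log2 scale, namely Cyp1a1, Dbp, Acsm2, Acsm5 and an unnamed probe, and apart from Cyp1a1 none of them passed the test. The other 4 fall outside the rule for named genes and were singled out after their values were seen.

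Acsm2 and Acsm5 code for mitochondrial enzymes that activate medium-chain fatty acids. Acsm5 had levels of 1.53, 1.15, 1.88 and 1.73 in AhR livers, against 1.28, 1.65, -1.39 and -0.04 in C livers. The levels overlap, and C replicates 3 and 4, both on slide 2, were low. Acsm2 followed, at 0.79, 0.74, 1.43 and 1.62 in AhR livers and 0.70, 0.74, -1.17 and 0.0021 in C livers. For the unnamed probe no AhR array and 2 of 4 C arrays gave a signal well above background. Its levels were -0.20, -0.77, -0.83 and -0.75 in AhR livers, against 0.01, 0.43, 1.96 and 0.84 in C livers. From the mean signal of all 4 C arrays its level was at least 2.22-fold lower in AhR, without passing the test. C replicate 3 was the highest, and C replicate 1 lay close to AhR replicate 1.

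**Figure D2:**
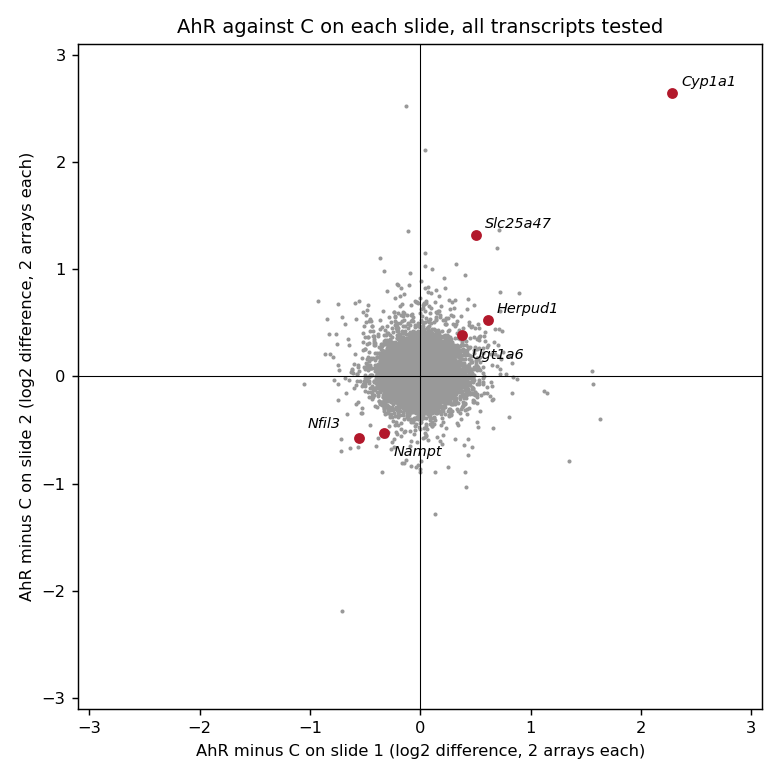
Difference between AhR and C on the log2 scale for each of the 13146 transcripts (points), on slide 1 (horizontal axis) and on slide 2 (vertical axis), from 2 arrays of each group per slide. Cyp1a1 lies alone in the upper right, at 2.28 and 2.64.

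On the 2 slides, which share no array, the differences of the 13146 transcripts correlated with r = 0.0327, and with r = 0.0175 when Cyp1a1 was left out. This is a description across transcripts, which are not independent replicates. Of 8 transcripts that differed by over 1 on slide 1 and 14 on slide 2, 1, Cyp1a1, did so in the same direction on both. A test of whether the difference itself changed between slides called 0% of transcripts, with 476 at an unadjusted p under 0.05 in limma. The smallest adjusted p of that test was 0.251, and its median standard error was 0.201. Without C replicate 4, C replicate 3 was the only C array on slide 2. The difference then changed between slides by 2.65 for Acsm2 and 3.32 for Acsm5, which rests on that array.

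No other member of the receptor's battery passed the test. The list had 16 genes, of which 14 were on the array by symbol and 12 passed the filter on dim probes. Ahrr and Aldh3a1 did not pass, and Tiparp and Ugt1a7c were not found by symbol. Among the 12, 1 rose (Cyp1a1), none fell, 8 differences were above 0, and the median was 0.12, against 0.000218 over all transcripts. Cyp1b1, not well above background on any AhR or C array, is 1 of the 4 below 0 and enters the median. Without C replicate 2 that median was 0.06, and it was also 0.06 without AhR replicate 4. In 2 of the 12, Cyp1a1 and Ugt1a6, all 4 AhR arrays lay above all C arrays, as they did for 0.981% of all transcripts.

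Cyp1a2, a constitutive hepatic P450 that metabolises arylamines and caffeine, had levels of 0.50, 0.67, 0.74 and 0.86 in AhR livers, against 0.89, 0.03, 0.44 and 0.58 in C livers. The groups overlap, and C replicate 1 was the highest of the 8 arrays. The difference was 0.21 ± 0.17 (SE), with a 95% interval of -0.15 to 0.56 and an adjusted p of 1.00 in limma. The interval lies below the rise of Cyp1a1.

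Ugt1a6, which glucuronidates planar phenols, measured 0.68, 0.65, 0.66 and 0.90 in AhR livers, against -0.02, 0.59, 0.56 and 0.23 in C livers. Every AhR array was above every C array, by a narrow margin over C replicates 2 and 3. The difference of 0.38 ± 0.14 (SE; 95% interval 0.09 to 0.67) was equal on the slides, at 0.38 on each, and did not pass (adjusted p = 1.00 in limma). A further Ugt1a6 probe, above background on all 16 arrays, differed by 0.28.

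Nqo1, a quinone reductase, had levels of 0.36, -0.05, 0.37 and 0.25 in AhR livers, against 0.21, -0.16, 0.41 and -0.13 in C livers. The groups overlap, and the difference was 0.15 ± 0.19 (SE; 95% interval -0.26 to 0.56). Cyp1b1, an extrahepatic P450, was not well above background on any AhR or C array, so no fold is given. Gsta2, a glutathione transferase, differed by -0.18 (95% interval -0.93 to 0.57), from -0.64 on slide 1 and 0.29 on slide 2. Fgf21, a fasting hormone made by liver, differed by 0.35 (95% interval -0.11 to 0.80) and Htatip2 by 0.18 (95% interval -0.10 to 0.45). Differences of the remaining members were 0.08 for Nfe2l2, the gene of the antioxidant regulator NRF2, 0.01 for the amino acid transporter Slc7a5, -0.05 for the fatty acid translocase Cd36 and -0.0035 for Cyp2s1. All of these intervals include 0.

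**Figure D3:**
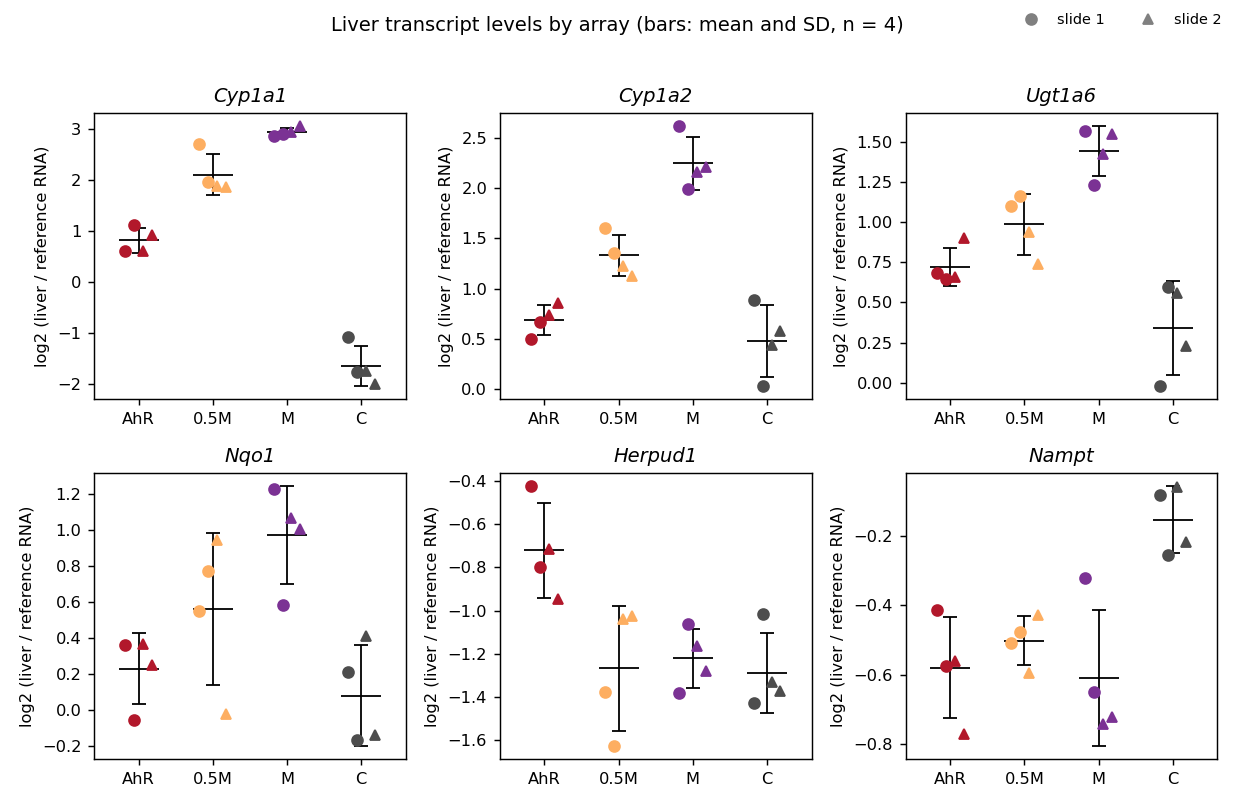
Log2 ratio of liver to reference (vertical axis) of 6 transcripts on every array (points; circles slide 1, triangles slide 2) in the AhR, 0.5M, M and C groups, with the mean and SD as bars (n = 4). The AhR points of Cyp1a1 lie between 0.60 and 1.12, above all C points and below all 0.5M and M points.

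No component of the receptor's own machinery passed the test. Of 15 listed genes 11 were measured, 6 were above 0 and 5 below, and the median difference was 0.03 (-0.0017 to 0.042 with single arrays left out). The receptor gene Ahr had levels of -0.05, 0.21, 0.51 and 0.36 in AhR livers, against 0.15, 0.24, 0.19 and 0.20 in C livers, a difference of 0.06 (95% interval -0.16 to 0.29). Arnt, its partner, did not pass the filter. Arnt2, a paralogue of Arnt known mainly from brain and kidney, had levels of 0.50, 0.47, 0.48 and 0.37 in AhR livers, against 0.28, 0.27, 0.08 and 0.14 in C livers. All 4 AhR arrays lay above all C arrays, with a difference of 0.26 ± 0.09 (SE) that did not pass (adjusted p = 1.00 in limma). The chaperones Hsp90aa1 and Hsp90ab1 differed by -0.10 and -0.01, and Ptges3, which codes for p23, by -0.08.

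The Cyp1a1 level was ordered over the groups. It was 2.69, 1.96, 1.88 and 1.85 in 0.5M livers and 2.86, 2.89, 2.94 and 3.05 in M livers, so all AhR arrays lay below all arrays of both mixture groups and above all C arrays. AhR was lower than 0.5M by a difference of -1.28 ± 0.18 (SE; 95% interval -1.68 to -0.89; adjusted p = 0.0227 in limma), 2.44-fold. Against M the difference was -2.12 ± 0.18 (95% interval -2.51 to -1.73; adjusted p = 1.95e-05 in limma), 4.35-fold. The doses are in different units, and the labels give dioxin equivalents neither for 0.5M nor for M, so these are comparisons of groups, not of matched doses.

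Single arrays of the mixture groups held transcripts of other tissues. Over the 12 measured skeletal muscle markers the median level was -2.20 to -1.13 on the 4 AhR arrays, against 3.50 in 0.5M replicate 4, 2.98 in M replicate 2 and -2.08 to -0.77 on the other mixture arrays. Summed Cy5 signal over the muscle markers was 130899 in 0.5M replicate 4 and 109367 in M replicate 2. The stellate cell and fibroblast median was 2.04 in M replicate 2 and 0.97 in 0.5M replicate 4, against 0.20 to 0.42 in AhR, and the pancreas median was 1.16 in M replicate 1. Without M replicate 2 and 0.5M replicate 4, an alternative added after seeing the data, 2 transcripts were called between AhR and 0.5M and 34 between AhR and M. Cyp1a1 then differed between AhR and 0.5M by -1.33 and left the threshold (adjusted p = 0.0533 in limma), while Cyp2b2 and Cyp2c6v1 passed. Without all 5 arrays with other tissue (AhR 2, C 2, 0.5M 4, M 1 and M 2), also added then, the counts were 4 and 19, and the Cyp1a1 difference from 0.5M was -1.35 (adjusted p = 0.0965 in limma). The part of these tissues in the differences was not tested beyond leaving arrays out.

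Against 0.5M, 0% of transcripts were higher in AhR (1189 at an unadjusted p under 0.05 in limma in either direction) and 0.0228% were lower. The 3 lower ones were Cyp2b2, Cyp1a1 and Cyp2c6v1. Cyp2b2, a phenobarbital-inducible P450 regulated by the receptor CAR, had levels of -0.57, -0.07, -0.23 and -0.35 in AhR livers, against 1.62, 1.35, 1.16 and 1.08 in 0.5M livers. All AhR arrays were low and the groups did not overlap, and the level was 3.04-fold lower in AhR (adjusted p = 0.0227 in limma). In C livers the Cyp2b2 level was -0.69, -0.35, -0.60 and -0.62, and its difference between AhR and C, 0.26 ± 0.22 (SE), did not pass. A further Cyp2b2 probe, above background on all 16 arrays, differed between AhR and C by 0.015. Cyp2c6v1, a P450 of the Cyp2c family, was 2.15-fold lower in AhR than in 0.5M (adjusted p = 0.0457 in limma). With the replicate number as a block in place of the slide 5 transcripts were called between AhR and 0.5M, and with AhR replicate 1, 3 or 4 or 0.5M replicate 1, 2 or 3 left out none were, nor with median centring, quantile normalization or the scanner software's ratios.

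Against M, 0.0685% of transcripts (9) were higher in AhR and 0.198% (26) lower (1297 at an unadjusted p under 0.05 in limma in either direction), and 3 were higher and 22 lower with the authors' value table. None was called with median centring or on slide 1 alone. The count of 35 dropped to 16 without AhR replicate 3, 10 without AhR replicate 4, 18 without M replicate 1, 12 without M replicate 3 and 13 without M replicate 4. Furthest below M were Cyp2b2, at -2.90 ± 0.22 (SE), Ceacam4, a cell-surface glycoprotein gene, at -2.18 ± 0.18, Cyp1a1 at -2.12 and Cyp2c6v1 at -1.97 ± 0.17. Ceacam4 had levels of -0.02, -0.13, -0.14 and -0.12 in AhR livers, 0.34, 0.10, 0.15 and 0.15 in 0.5M livers, 2.11, 1.33, 2.55 and 2.32 in M livers and -0.22, -0.27, -0.53 and -0.27 in C livers. Only the M arrays were high. Other named transcripts among the 26 included Cyp2c7, Cyp2a3, Aldh1a1, Ugt2b1, Cyp3a23-3a1, Gstm2, Ugt2b37 and Gsta4. Their differences from M lay between -1.87 for Cyp2c7 and -0.71 for Gsta4. Between AhR and C, Cyp2c6v1 differed by -0.11 and Cyp2c7 by 0.05, and of the 35 only Cyp1a1 passed. Furthest above M was A2m, the acute phase protease inhibitor alpha-2-macroglobulin, at 1.22 ± 0.16 (SE; adjusted p = 0.00183 in limma). The next were Cyp17a1, a steroid hydroxylase, at 0.83, Scap, the sterol-sensing escort of SREBP, at 0.60, and Slc16a11, a monocarboxylate transporter, at 0.54. Between AhR and C, A2m differed by 0.19, Cyp17a1 by -0.02, Scap by 0.27 and Slc16a11 by -0.12, and none passed. Without the 5 arrays with other tissue, none of these 4 differences from M passed. The adjusted p-values in limma were then 0.111 for A2m, 0.0659 for Cyp17a1, 0.226 for Scap and 0.293 for Slc16a11. Scap also missed the threshold with the replicate number as a block (adjusted p = 0.0626 in limma).

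In the battery, leaving Cyp1b1 aside, 3 of the other 11 measured members were lower in AhR than in M and 1 lower than in 0.5M, and none was higher. Over all transcripts 0.198% were lower in AhR than in M and 0.0228% lower than in 0.5M, while 0.0685% and 0% were higher. Cyp1a2 had levels of 1.61, 1.36, 1.23 and 1.13 in 0.5M livers and 2.61, 1.99, 2.16 and 2.21 in M livers. Against M the AhR livers were lower by a difference of -1.55 ± 0.17 (SE; adjusted p = 0.000153 in limma), and against 0.5M the difference of -0.64 had an adjusted p of 0.321 in limma. Ugt1a6 was 1.65-fold lower in AhR than in M (adjusted p = 0.0366 in limma). That call was lost with the replicate number as a block (adjusted p = 0.0713 in limma), with the authors' value table (0.0501), with no filter on dim probes (0.0590), and with any single AhR array or M replicate 1, 3 or 4 left out (0.0702 to 0.136). Cyp1b1 was well above background on no AhR array, 1 of 4 0.5M arrays and 3 of 4 M arrays, and its level was at least 1.83-fold lower in AhR than in M. It passed the filter only through these mixture arrays, so no test is given for it. The count of 26 transcripts lower in AhR than in M includes it. That count also holds a transcript without a symbol, well above background on no AhR array and 3 of 4 M arrays. The level of that transcript was at least 1.43-fold lower in AhR. Qpct, counted as higher in AhR than in M, was well above background on 3 of 4 AhR arrays and no M array. The Qpct level was at least 1.14-fold higher in AhR. Nqo1 differed between AhR and M by -0.74 and did not pass (adjusted p = 0.180 in limma). Without M replicate 2 and 0.5M replicate 4 it differed by -0.85 and passed (adjusted p = 0.0239 in limma).

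**Figure D4:**
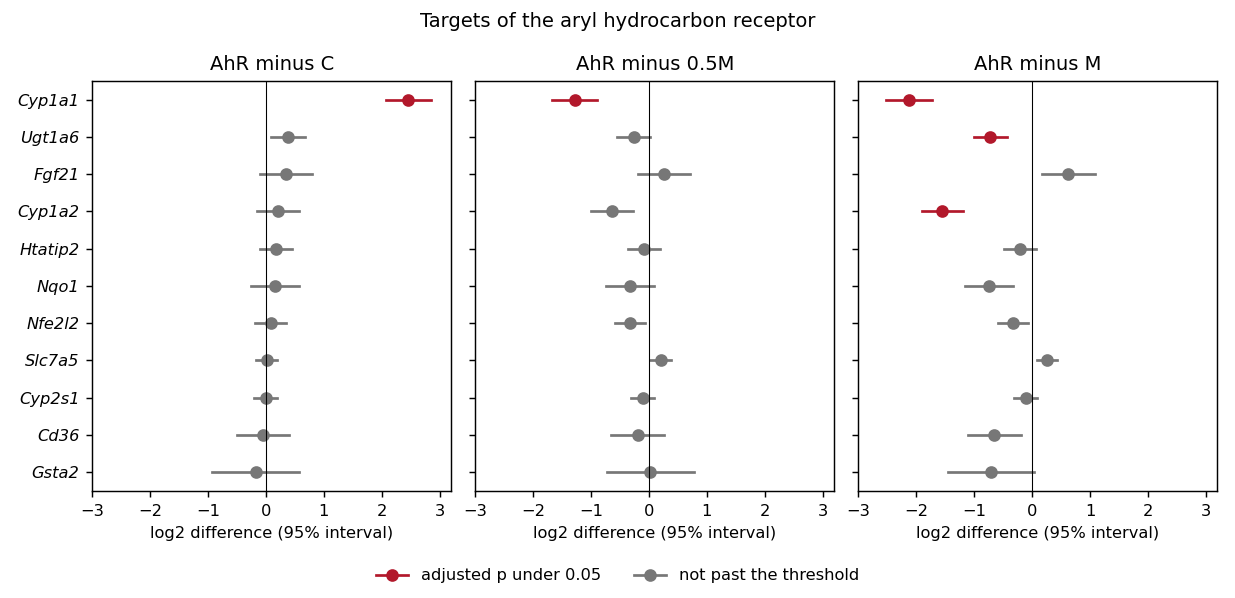
Log2 difference with its 95% interval for 11 measured targets of the receptor, Cyp1b1 left out as not well above background in AhR and C livers, AhR minus C (left), AhR minus 0.5M (middle) and AhR minus M (right). Red marks an adjusted p under 0.05, which Cyp1a1 reached in all 3 comparisons, while Cyp1a2 and Ugt1a6 did so against M.

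After Cyp1a1, the transcripts with the smallest unadjusted p of those higher in AhR were Slc25a47, Kif7, Herpud1, Entpd5, Smad7, Klf11, Msantd5, Ak4 and Mrnip, with differences of 0.34 to 0.91. Kif7 is a kinesin of Hedgehog signalling, Smad7 an inhibitor of TGF-beta signalling and Ak4 a mitochondrial adenylate kinase. None passed, and all had an adjusted p of 1.00 in limma. Slc25a47, a liver-enriched mitochondrial carrier, had levels of -1.09, -1.79, -1.22 and -0.89 in AhR livers, against -1.92, -1.96, -2.09 and -2.65 in C livers. The groups did not overlap, and the difference of 0.91 ± 0.21 (SE) was 0.50 on slide 1 and 1.31 on slide 2. Herpud1, a factor of endoplasmic-reticulum-associated protein degradation, had levels of -0.42, -0.80, -0.71 and -0.95 in AhR livers, against -1.43, -1.02, -1.33 and -1.37 in C livers. Its 0.5M levels were -1.38, -1.63, -1.04 and -1.02 and its M levels -1.38, -1.06, -1.17 and -1.28, so the 4 AhR arrays were the highest of all 16. Of the 22 measured members of the unfolded protein response list 13 were above 0, the median difference was 0.04 (-0.00093 to 0.078 with single arrays left out) and none passed; Herpud1 and Pdia4, at 0.57 and 0.30, had the smallest p.

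Among those lower in AhR with the smallest unadjusted p were Nampt, Nfil3, Mavs, Rpf2, Patz1, Polr2b, Ier5l, Fbln5 and Depp1, with differences of -0.57 to -0.29 and adjusted p-values of 1.00 in limma. Mavs is an antiviral signalling adaptor, Polr2b a subunit of RNA polymerase II and Fbln5 an elastic fibre protein. Nampt, the rate-limiting enzyme of NAD salvage, had levels of -0.41, -0.57, -0.56 and -0.77 in AhR livers, against -0.08, -0.25, -0.06 and -0.22 in C livers. The groups did not overlap, but the 0.5M levels (-0.51, -0.48, -0.59 and -0.43) and M levels (-0.32, -0.65, -0.74 and -0.72) were also below all C arrays.

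Clock genes gave some of these names. Of 13 measured clock genes 8 were above 0 and 5 below with a median of 0.12, and none passed. The median was 0.17 on slide 1 and -0.025 on slide 2, 0.054 without C replicate 2, and 0.032 without AhR replicate 2 and C replicate 2. All 4 AhR arrays lay above all C arrays for 2 of them, Dbp and Tef, and below for 2, Nampt and Cry1, where 0.981% and 1.02% of all transcripts did so. Dbp, a clock-driven transcription factor, had levels of -1.52, -1.97, -0.11 and -1.91 in AhR livers, against -2.06, -2.85, -2.51 and -2.24 in C livers, a difference of 1.04 with an adjusted p of 1.00 in limma. Nfil3, a repressor that binds the same sites as Dbp, had levels of -0.17, -0.28, 0.02 and 0.32 in AhR livers, against 0.46, 0.21, 0.77 and 0.73 in C livers. These overlap by 1 AhR array, replicate 4. Nfil3 levels were -0.13, 0.02, 0.13 and -0.36 in 0.5M livers and -0.16, -0.53, 0.25 and 0.06 in M livers. The arrays with muscle transcripts, 0.5M replicate 4 and M replicate 2, lay below all AhR arrays. Cry1, a core clock repressor, had levels of 0.39, 0.32, -0.02 and 0.07 in AhR livers, against 0.44, 0.60, 0.95 and 0.71 in C livers. Cry1 levels were 0.67, 0.22, 0.20 and 0.13 in 0.5M livers and -0.16, 0.49, 0.27 and 0.20 in M livers. Dbp levels were -2.50, -2.04, -1.78 and -0.59 in 0.5M livers and -1.08, -1.77, -2.27 and -2.12 in M livers. Tef levels were -0.68, -0.65, -0.40 and -0.15 in 0.5M livers and -0.38, -0.58, -0.89 and -0.84 in M livers. For Cry1, Dbp and Tef the mixture levels overlapped those of both AhR and C livers. The hour at which livers were taken is not given in the labels and its part was not tested. Dbp, Tef and Cry1 were named after their values were seen.

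No member of the metabolic and stress lists passed the test. Of 25 measured genes of cholesterol synthesis 24 were above 0, with a median of 0.24. The members with the smallest p were Hmgcs1, which makes HMG-CoA, at 0.46 (95% interval 0.06 to 0.86), and Mvd, at 0.47 (95% interval 0.05 to 0.89). By slide the median was -0.0045 on slide 1 and 0.51 on slide 2, and it was 0.06 when C replicate 4 was left out. The list's median level was -0.0020, 0.34, 0.64 and 0.43 in AhR livers and -0.02, 0.36, 0.34 and -0.26 in C livers. Fatty acid and triglyceride synthesis had 16 of 18 members above 0 (median 0.12), with the smallest p in Acaca, at 0.22, and Fasn, at 0.46. That median was 0.19 without C replicate 3 and 0.06 without C replicate 4. Targets of NRF2, the antioxidant regulator, had 14 of 18 above 0 (median 0.11), with Ugdh, which makes UDP-glucuronic acid, at 0.27 and Ftl1 at 0.44. CAR and PXR targets had 11 of 17 above 0 (median 0.13), fatty acid oxidation and PPARa targets 19 of 28 (median 0.05) and bile acid genes 12 of 19 (median 0.09). Retinoid and thyroid hormone genes had 15 of 18 above 0 (median 0.14), glucocorticoid-responsive genes 14 of 17 (median 0.10), glucose metabolism genes 10 of 18 (median 0.04), growth hormone and sex-biased genes 7 of 20 (median -0.03) and genes of methyl transfer and heme 8 of 18 (median -0.0063).

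Most of these medians moved by over 1.5 times with single arrays left out. That of CAR and PXR targets was 0.046 without AhR replicate 1 and 0.084 without C replicate 4, and it was 0.085 on slide 1 and 0.026 on slide 2. That of glucocorticoid-responsive genes was 0.064 without AhR replicate 1, 0.20 without AhR replicate 2, 0.17 without AhR replicate 3, 0.16 without AhR replicate 4 and 0.18 without C replicate 1. Over the 8 arrays left out in turn, the lowest and highest medians were 0.088 and 0.15 for NRF2 targets, 0.017 and 0.084 for fatty acid oxidation and PPARa targets and 0.014 and 0.15 for bile acid genes. They were 0.086 and 0.17 for retinoid and thyroid hormone genes, 0.017 and 0.076 for glucose metabolism, -0.092 and 0.019 for growth hormone and sex-biased genes and -0.020 and 0.026 for methyl transfer and heme, so the last 2 lists changed sign.

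**Figure D5:**
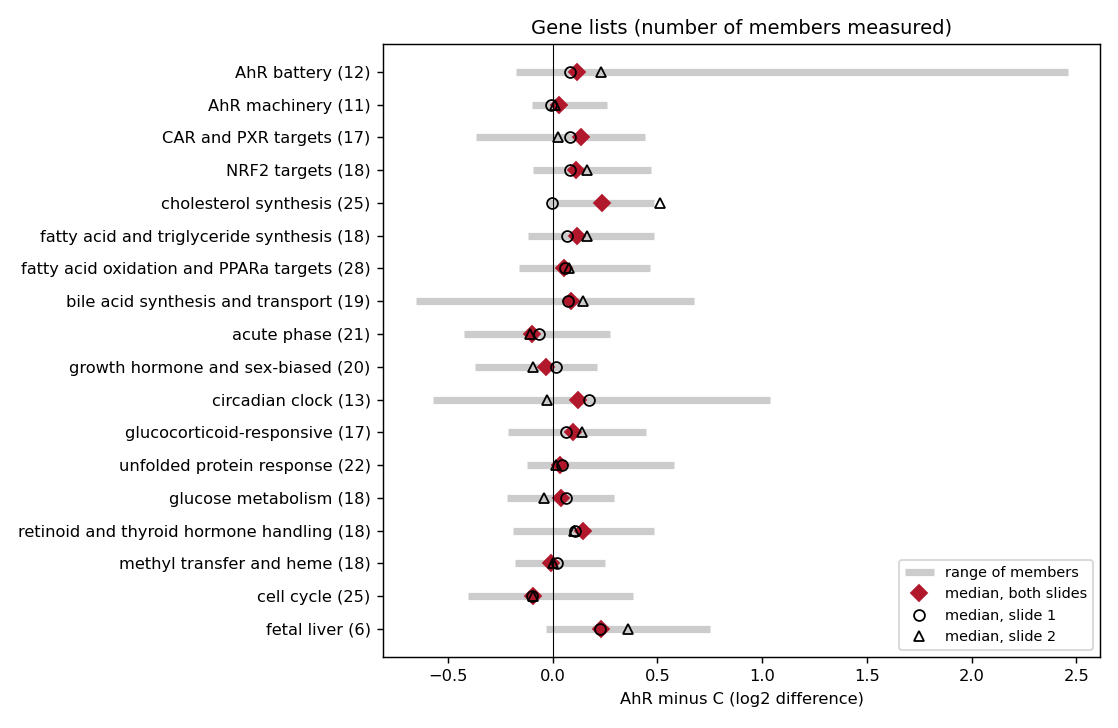
AhR minus C on the log2 scale (horizontal axis) for 18 gene lists (rows, with the number of measured members): range of the members (grey), median over both slides (red) and median on each slide (open marks). Cyp1a1 sets the right end of the AhR battery, and cholesterol synthesis has medians of -0.0045 on slide 1 and 0.51 on slide 2.

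Acute phase genes were mostly below 0, 17 of 21 with a median of -0.10, and cell cycle genes likewise, 21 of 25 with a median of -0.10, with none past the threshold. The acute phase median was 0.020 without C replicate 1 and -0.20 without C replicate 2, and the cell cycle median 0.025 without AhR replicate 3 and -0.17 without AhR replicate 4. Within the cell cycle list Ccnd1, cyclin D1, differed the other way, at 0.39, with levels of -0.44, -0.47, -0.27 and -0.17 in AhR livers, against -0.65, -0.72, -0.75 and -0.78 in C livers. These groups did not overlap, and the adjusted p was 1.00 in limma. AhR replicate 3, high in erythroid and leukocyte markers, and AhR replicate 1 enter these lists, and their part was not tested. AhR replicate 1 was high in muscle markers, as were the other AhR and C arrays of slide 1 to a lesser degree. Fetal liver genes had 5 of 6 above 0, with a median of 0.23 that was 0.12 without C replicate 2 and 0.45 without AhR replicate 2; H19 had levels of 3.22, 1.18, 2.76 and 2.86 in AhR livers, against 1.99, 0.98, 1.97 and 2.08 in C livers, and Afp, the fetal albumin counterpart, 2.65, 0.95, 1.83 and 2.33 in AhR livers, against 1.59, 1.15, 1.11 and 1.61 in C livers. Both overlap, with AhR replicate 2 low in each, and both missed the threshold. The 5 symbols whose level followed Cyp1a1 most closely over the 8 arrays, after removal of slide means, were Tlcd4, Ctnnd1, Zfp68, Pbld1 and Borcs8. Their Pearson r was 0.95 to 0.97 as a description without a p, and their differences ran from 0.08 to 0.28. They are the highest r among 8562 transcripts with a symbol, group difference left in, so a high r was built into the choice. All 4 AhR arrays lay above all C arrays for Pbld1, as for 0.981% of all transcripts, and 2 did for each of the others. None of the 5 passed the test.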

How the data were processed

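Per the file headers, the authors' scan files hold median spot signals as intensity, written by Agilent Feature Extraction 10.7.3.1, with a log10 ratio and quality marks of 0 or 1 (unit other). A value table deposited by the authors, on the log2 scale, served as an alternative. Against the scan files its own-array correlations were positive, 0.965 to 0.991, its column medians were -0.0093 to 0.012, and its further processing is not given in the sources used here. The direction is liver over reference, as Cy5 was the liver dye per the labels.

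From the 62976 spots, signals were background-corrected (normexp, offset 50), loess-normalized within arrays and averaged over the spots of each of 30367 probes. Probes that the scanner software called well above background in the liver dye on 4 or more of 16 arrays were kept (14524, of which 12 had missing values and were left out), leaving the brightest probe for each of 13146 transcripts, 8562 with a symbol from RefSeq. The arrays' precision is limited by their number, 4 per group. limma 3.58.1 (R 4.3.3, data.table version 1.17.8) fitted a mean per group and the slide over all 16 arrays; p-values are two-sided, adjusted by Benjamini-Hochberg over the transcripts. A fold given as at least takes, for a group without signal well above background, the higher of its own signal and the lowest such signal on the array, or the fitted fold if smaller. Alternatives covered background, normalization, filters, slide, replicate block, array weights and left-out arrays. The files hold median signals where the plan named means, so medians were used.

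Same-numbered AhR and C arrays correlated in their deviations from group means by 0.34, 0.24, 0.25 and 0.13, but they also share a slide; from group and slide means the values were 0.20 on slide 1 and -0.03 on slide 2. Members and lists were chosen with earlier results of these data known. Named genes are those past the threshold, the 10 smallest p-values each way, the measured members of the AhR lists and 2 members from each other list. Some genes that this rule names are not reported here.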

Additional observations from a re-analysis of the deposited data

Results flagged for a closer look

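In 230 groups of 4 arrays tested for a value far from the others of its group (Dixon's criterion, where chance marks about 1 in 20), 11 did so, near the share that chance gives. Among genes, Ugt1a6 was 0.90 in AhR replicate 4, against 0.65 to 0.68 in the other AhR arrays. Ceacam4 was -0.024 in AhR replicate 1 and -0.53 in C replicate 3. In the C group alone, Fabp4 was 1.54 in replicate 2, H19 0.98 in replicate 2, Lrat 0.51 in replicate 3 and Patz1 0.73 in replicate 1. Among marker medians, erythroid genes were 1.38 and Kupffer cell and leukocyte genes 0.43 in AhR replicate 3, and cholangiocyte genes were 0.10 in AhR replicate 2 and 0.17 in C replicate 4.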

How the results depend on the processing

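The rise of Cyp1a1 kept its direction in all 27 alternative settings and left the threshold in 3: median centring in place of loess (difference 2.26, adjusted p 1.00), quantile normalization between arrays (2.42, 0.0717) and slide 1 alone (2.28, 0.444), where the count of transcripts called between AhR and C was 0. The count was 1 with any single AhR or C array left out. Between AhR and 0.5M the main count of 3 became 0 with median centring, quantile normalization, the scanner software's ratios, slide 1 alone and without AhR 2 and C 2; it was 0 to 3 without single arrays. Between AhR and M the main count of 35 became 0 with median centring and slide 1 alone, 17 with quantile normalization, 19 with the scanner's ratios, 13 on slide 2 alone, 64 with array weights, 23 without AhR 2 and C 2 and 19 without the 5 arrays with other tissue (an alternative added after seeing the data); it was 10 to 35 without single arrays (leaving out 0.5M and M arrays was also added then). With array weights the 64 split into 25 higher and 39 lower, and with the authors' value table there were 3 higher and 22 lower. In the fit with the replicate block in place of the slide, the counts were 1, 5 and 30 against C, 0.5M and M. The labels do not say that arrays of equal number are pairs. The slide interaction was 0 in every setting run with all 8 AhR and C arrays. With an AhR or C array left out, 1 slide held 1 array of that group, so no count is given. The causes were not tested. Of 3757 gene values over 35 settings 3636 stayed on their side of the threshold, or within 1 SD where no test was made, and 121 did not; of 783 list medians 755 stayed within that spread. Fits with the 8 AhR and C arrays alone give no value for AhR against 0.5M or M.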
